A study of Rattus norvegicus with 16 samples.

Results

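B3galt5, Nags and Rasl10a are 3 rat genes whose transcript signal stood highest 12 h after ligation of the efferent ducts. They were chosen from these arrays, by symbol, for that shape, so their levels over time are described here and not tested. Each had 1 probe set: 1375030_at for B3galt5, 1391907_at for Nags and 1376909_at for Rasl10a. They are 3 of 14217 genes with a probe set on the array and of 8344 genes with enough signal to be tested.

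The tissue was the initial segment of the epididymis, the stretch nearest the testis, from adult male Sprague-Dawley rats. Efferent duct ligation shuts off the fluid that the testis sends into the epididymis. Each rat was ligated on one side and sham-operated on the other, and the proximal zones of the segment were collected 6, 12 or 18 h later. The 4 groups (sham, 6 h, 12 h and 18 h of ligation) held 4 arrays each, 16 in all, labelled as biological replicates. Which sham side belongs to which ligated side, and at what time the sham sides were taken, is not stated in the labels. All differences from sham therefore share the same 4 sham arrays, and p-values measure the spread between these 16 arrays, whose number limits the precision.

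The 3 genes belong to separate branches of cell biology. B3galt5 encodes a Golgi enzyme that adds galactose to N-acetylglucosamine and so starts the lacto-series sugar chains on which Lewis antigens are built in epithelia. Nags encodes the mitochondrial N-acetylglutamate synthase, whose product switches on carbamoyl phosphate synthetase (Cps1), the entry enzyme of the urea cycle in liver and intestine. Rasl10a encodes a small GTPase of the Ras superfamily. The initial segment is known to depend on testicular fluid to maintain its epithelium and its gene expression.

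In the rat assembly GRCr8, B3galt5 spans chr11:49053959-49100398, Nags spans chr10:87598516-87602650 and Rasl10a spans chr14:84169141-84170519, all on the plus strand. A RefSeq locus with no gene name overlaps the start of Nags (chr10:87595853-87600040), and signal shared with it was not tested. The 250 bases before the RefSeq start site of each are shown because the 3 genes rose at the same time. The windows are chr11:49093945-49094194 for B3galt5, chr10:87598266-87598515 for Nags and chr14:84168891-84169140 for Rasl10a. Capitals mark matches to the motifs searched.

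B3galt5: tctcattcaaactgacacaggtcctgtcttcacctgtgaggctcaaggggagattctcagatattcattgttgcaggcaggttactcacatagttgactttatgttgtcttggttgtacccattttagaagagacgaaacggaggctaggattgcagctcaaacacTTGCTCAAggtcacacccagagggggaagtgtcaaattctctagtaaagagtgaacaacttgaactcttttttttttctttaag
Nags: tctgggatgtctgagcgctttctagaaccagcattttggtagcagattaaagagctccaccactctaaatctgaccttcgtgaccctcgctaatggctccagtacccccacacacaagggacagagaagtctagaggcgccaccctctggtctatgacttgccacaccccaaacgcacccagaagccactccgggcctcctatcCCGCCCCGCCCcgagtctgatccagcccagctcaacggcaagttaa
Rasl10a: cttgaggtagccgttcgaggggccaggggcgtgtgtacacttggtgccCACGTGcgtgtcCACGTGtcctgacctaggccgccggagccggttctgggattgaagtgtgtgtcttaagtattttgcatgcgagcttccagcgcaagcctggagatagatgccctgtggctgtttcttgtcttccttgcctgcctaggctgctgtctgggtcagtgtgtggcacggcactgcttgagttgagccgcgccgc

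The 3 windows had no searched motif in common. The B3galt5 window held 1 match to the C/EBP motif TTNNGNAA, read on the other strand, at bases -84 to -77 from the start site. This motif was found in 37.2% of 33469 RefSeq windows of this length. The Nags window held 2 overlapping GC boxes (GGGCGG, read on the other strand) at bases -46 to -41 and -41 to -36, a motif in 30.5% of windows. The Rasl10a window held 2 copies of the E-box CACGTG, at bases -202 to -197 and -190 to -185, a motif in 5.59% of windows. Both strands were searched, and the windows held 0 matches to ETS (CCGGAA, in 12.6% of windows), AP-1 (TGANTCA, 6.34%), CRE (TGACGTCA, 1.59%), STAT (TTCNNNGAA, 7.67%), NFKB (6.33%) motifs, or to the promoter box TATAAA (12.9%). Base composition differed too: the GC content was 42.4% for B3galt5, 56.4% for Nags and 60% for Rasl10a, against a median of 51.2% over all windows. B3galt5 has 4 RefSeq transcripts, and its start site in the promoter table lies 40236 bases into the gene, so its window covers 1 of several possible starts. A match is a run of letters, and which start is used in this tissue was not measured.

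Values are GCRMA levels on the log2 scale, and a level under 5, the minimum set for testing, is not told from background here. B3galt5 lay at 2.71, 2.71, 2.71 and 2.63 on the sham arrays (replicates 1 to 4) and at 3.06, 2.99, 3.83 and 3.72 on the 6 h arrays. It lay at 6.67, 7.78, 5.76 and 7.02 on the 12 h arrays and at 5.42, 4.94, 5.81 and 4.04 on the 18 h arrays. All sham and 6 h arrays were thus under the minimum, all 12 h arrays were above it, and at 18 h replicates 1 and 3 were above it. The means were 2.69 ± 0.037 in sham, 3.40 ± 0.434 at 6 h, 6.81 ± 0.837 at 12 h and 5.05 ± 0.763 at 18 h (SD, n = 4 each). The 12 h mean was 4.12 log2 units above sham (SE 0.40), or 17.4-fold, and 1.81 above the minimum level.

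Nags lay at 4.61, 2.22, 2.72 and 2.26 in sham and at 2.93, 2.26, 2.72 and 4.61 at 6 h. It lay at 7.35, 7.47, 5.18 and 7.31 at 12 h and at 4.95, 6.47, 6.77 and 7.28 at 18 h. The sham and 6 h arrays overlapped and stayed under the minimum, while 4 arrays at 12 h and 3 at 18 h were above it. The low array at 12 h was replicate 3, which was also the lowest 12 h array for B3galt5 but not for Rasl10a. The means were 2.95 ± 1.13 in sham, 3.13 ± 1.03 at 6 h, 6.83 ± 1.10 at 12 h and 6.37 ± 1.00 at 18 h (SD, n = 4 each), so the 12 h mean was 3.88 above sham (SE 0.69), or 14.7-fold, and 1.83 above the minimum.

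Rasl10a lay at 4.03, 4.03, 4.03 and 3.96 in sham and at 4.04, 4.07, 5.005 and 4.59 at 6 h. It lay at 6.13, 7.17, 7.04 and 7.33 at 12 h and at 5.68, 5.95, 6.84 and 6.17 at 18 h. Its SD was the smallest of the 3 in sham and at 12 and 18 h, and all of its 12 h and 18 h arrays were above the minimum. The means were 4.01 ± 0.033 in sham, 4.43 ± 0.462 at 6 h, 6.92 ± 0.540 at 12 h and 6.16 ± 0.494 at 18 h (SD, n = 4 each). The 12 h mean was 2.90 above sham (SE 0.29), or 7.47-fold, and 1.92 above the minimum. Since the sham levels of all 3 genes were in the background range, the fold changes describe the GCRMA scale and are no measured ratio of transcripts. In tissue RNA, a change in the number of expressing cells and a change in RNA per cell cannot be told apart.

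**Figure D1:**
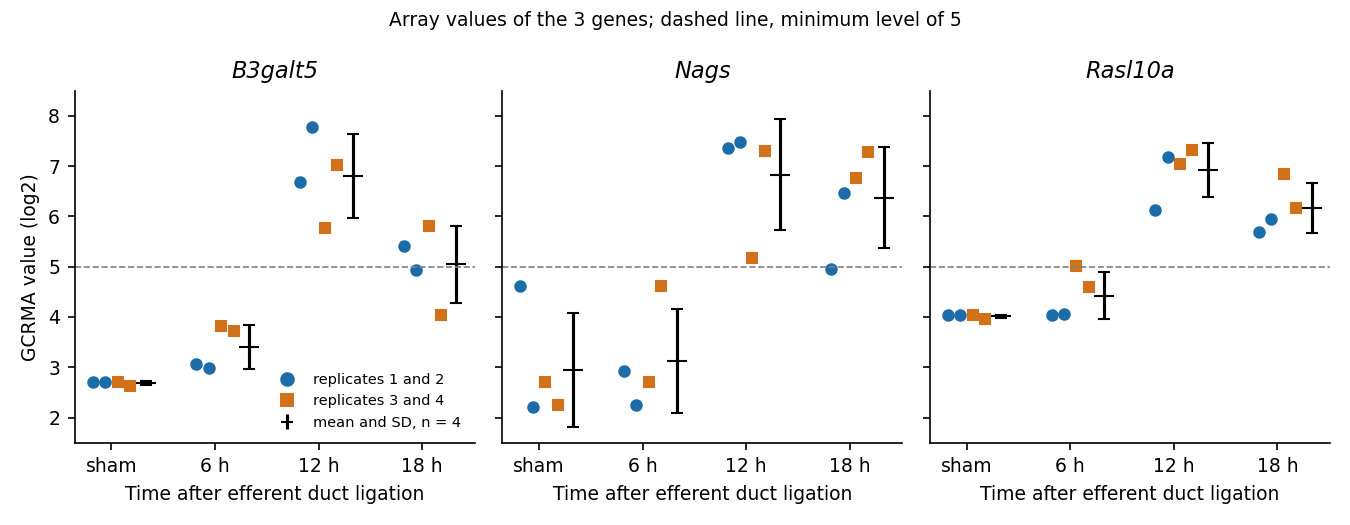
GCRMA level (log2, y axis) of B3galt5, Nags and Rasl10a on each of the 16 arrays by group (x axis), with circles for replicates 1 and 2, squares for replicates 3 and 4, and the mean with SD beside them. The 12 h and 18 h arrays of each gene lie above its sham and 6 h arrays, while the 12 h and 18 h arrays overlap one another.

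In each gene the order of the group means was sham, 6 h, 18 h, 12 h. Every 12 h array stood above every sham and 6 h array in all 3 genes, which held for 3.76% of all tested genes. The same was true of every 18 h array in all 3, against 5.17% of tested genes. Both statements follow largely from how the genes were chosen. The step at 6 h was small. Every 6 h array was above every sham array for B3galt5 and Rasl10a, which held for 3.09% of tested genes, but not for Nags. The sham values of B3galt5 and of Rasl10a were nearly equal and in the background range, where a small difference separates the groups. For Rasl10a the lowest 6 h array was at 4.038 and the highest sham array at 4.030. The 6 h means were 0.71, 0.18 and 0.41 above sham for B3galt5, Nags and Rasl10a, with all but 1 of these 6 h arrays still under the minimum. In replicates 1 and 2 these differences were 0.32, -0.82 and 0.023, and in replicates 3 and 4 they were 1.10, 1.18 and 0.80. Leaving out 1 array gave -0.31 to 0.73 for Nags, so its direction at 6 h rested on single arrays. Most of the rise came between 6 and 12 h, by 3.41 for B3galt5, 3.70 for Nags and 2.49 for Rasl10a.

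The name of a 12 h peak holds for the means of all 3 genes. B3galt5 was 1.76 lower at 18 h than at 12 h (SE 0.40), Rasl10a was 0.76 lower (SE 0.29) and Nags was 0.46 lower (SE 0.69), and whether these falls differ between genes was not tested. In none of the 3 genes did the 12 h and 18 h arrays separate. In each gene 3 of the 4 arrays at 12 h lay above every 18 h array, and the lowest 12 h array was passed by 1 of the 18 h arrays for B3galt5, by 3 for Nags and by 2 for Rasl10a. Every 12 h array lay above every 18 h array in 1.37% of tested genes. The Nags difference turned on single arrays. It was -1.01 without replicate 3 at 12 h and 0.013 without replicate 1 at 18 h, so that for Nags a fall after 12 h was smaller than the spread between arrays.

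The arrays fell into 2 sets by replicate number (replicates 1 and 2 against 3 and 4), with 36.9% of tested probe sets called between the sets in limma with the group in the model. Of the 3 genes, Rasl10a was called between the sets (0.48 ± 0.16 higher in replicates 3 and 4, SE, adjusted p = 0.0313). B3galt5 (-0.09 ± 0.29, adjusted p = 0.822) and Nags (0.07 ± 0.50, adjusted p = 0.925) were not called. The Rasl10a value is an average over the groups. Its means in replicates 1 and 2 and in replicates 3 and 4 were 4.03 and 3.997 in sham. They were 4.05 and 4.80 at 6 h, 6.65 and 7.18 at 12 h, and 5.82 and 6.50 at 18 h. The rise by 12 h was present in both sets. Both sets were among the arrays the 3 genes were chosen from, so this follows largely from the choice. Replicates 1 and 2 gave 4.52 for B3galt5, 4.00 for Nags and 2.62 for Rasl10a, whereas replicates 3 and 4 gave 3.72, 3.76 and 3.18. From 12 h to 18 h B3galt5 was lower in both sets (-2.05 and -1.47), as was Rasl10a (-0.83 and -0.68). Nags was lower in replicates 1 and 2 (-1.70) and higher in replicates 3 and 4 (0.78). The dap control transcript was above the minimum on 4 arrays (7.53 to 8.24), replicates 3 and 4 of sham and 6 h, and at 2.22 on the others. Its part in these results was not tested.

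Across the 8344 tested genes the group mean was highest at 12 h in 2006 (24.0%). At 12 h 40 genes stood at least 2 log2 units above sham, and 20 of these (50%) were highest at 12 h, with a median change from 12 to 18 h of -0.04 over the 40. Among these 40, 2 genes had a more negative difference from 12 to 18 h than B3galt5, 7 than Rasl10a and 10 than Nags. The 3 genes were chosen for a 12 h maximum in these data, so these places follow largely from the choice. They also passed the minimum level through their ligated arrays, since none of their sham arrays reached it. In limma 0 genes (0%) were called in either direction between 18 h and 12 h, with 562 of 8344 genes at an unadjusted p under 0.05. Of the 13410 tested probe sets, 22 were called without replicate 3 at 12 h, 53 without replicate 4 at 18 h and 1 without replicate 3 at 18 h.

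**Figure D2:**
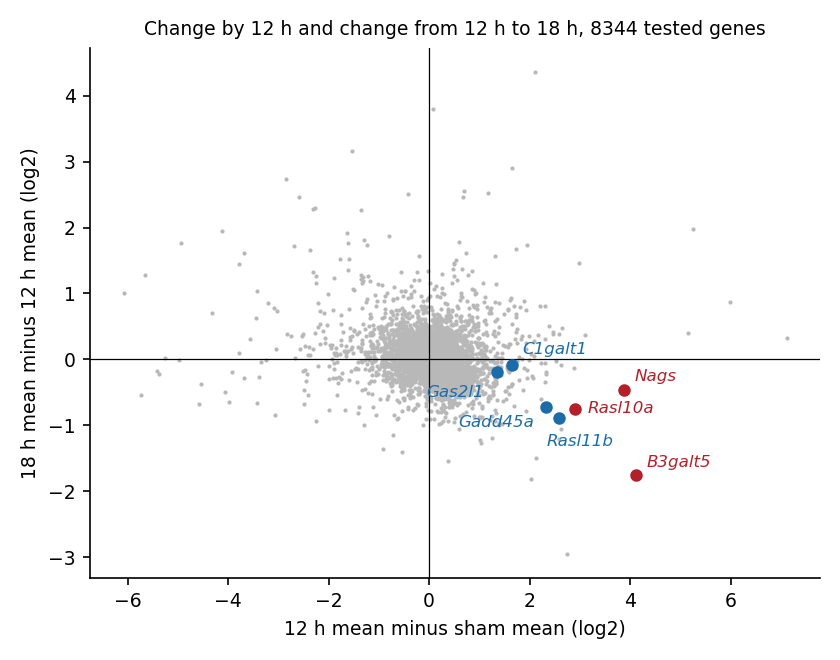
Each point is 1 of the 8344 tested genes, with the 12 h mean minus the sham mean on the x axis and the 18 h mean minus the 12 h mean on the y axis (both log2). B3galt5, Nags and Rasl10a (red) lie far to the right at 4.12, 3.88 and 2.90, with B3galt5 lowest of the 3 at -1.76; 4 other named genes are in blue.

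A strict 12 h peak, with every 12 h array above the other 12 arrays, was found in 13 genes (0.156% of those tested), and none of the 3 genes was among them. The largest excess among these 13 was in Gadd45a, a stress-induced gene of growth arrest. It lay at 7.04, 7.02, 7.01 and 6.996 in sham, at 7.94, 7.95, 7.86 and 7.67 at 6 h, at 9.65, 9.46, 9.13 and 9.12 at 12 h and at 8.40, 8.87, 8.54 and 8.68 at 18 h. Its 4 groups did not overlap, and the 12 h mean was 0.72 above the 18 h mean. The next were Ddah2 (0.67 above the next highest group mean), which encodes an enzyme named for the breakdown of dimethylarginine, Alox12 (0.53), a lipoxygenase, Tom1 (0.36), an endosomal sorting protein, Vps9d1 (0.35), Rasd1 (0.34), a Ras-like GTPase, Wee1 (0.31), a kinase that restrains entry into mitosis, and Scmh1 (0.29), a Polycomb protein. These excesses were smaller than that of B3galt5, which had more spread within groups. B3galt5 was chosen for its 12 h peak, so this order follows largely from the choice. Its 18 h mean of 5.05 lay close to the minimum level, with 2 of the 4 arrays above it.

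The likeness of the 3 profiles was described by Pearson's r over the 16 arrays, which share their normalization and their 4 groups. The 3 genes were chosen for a shared shape over these same arrays, so their likeness to one another follows largely from the choice. B3galt5 and Rasl10a were each other's closest match among 8307 other genes (r = 0.928). Nags was less close to either, at 0.833 with B3galt5 and 0.865 with Rasl10a. After Rasl10a, the genes most like B3galt5 were Gadd45a (0.910), Psmb10 (0.902), an immunoproteasome subunit, Nadk (0.901), the cytosolic NAD kinase, and Flot2 (0.889), a flotillin of membrane rafts. After B3galt5, those most like Rasl10a were Pgm2 (0.927), a sugar-phosphate mutase, Psmb10 (0.925), Rab7a (0.905), a GTPase of late endosomes, and C1galt1 (0.901). The genes most like Nags were Got2 (0.958), the mitochondrial aspartate aminotransferase, Fes (0.957), a tyrosine kinase, Rhobtb1 (0.957), Cyp4f4 (0.951), a cytochrome P450, and Wdr1 (0.947), which promotes actin disassembly. These Nags-like genes changed by between -0.02 and -0.15 from 12 to 18 h, that is, they stayed near their 12 h level.

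Genes of the 3 surrounding pathways were counted from lists that leave out the 3 genes. A gene is called at a limma adjusted p under 0.05, over all 13410 tested probe sets. Over all tested genes, 0.168% were called higher and 0.192% lower at 6 h than in sham, 4.39% and 4.36% at 12 h, and 5.99% and 5.12% at 18 h. An unadjusted p under 0.05 was found for 6.02% of tested genes at 6 h, 20.9% at 12 h and 23.3% at 18 h against sham, and for 6.74% between 18 h and 12 h. In a second fit the 2 array sets were a block.

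Of 48 listed genes of galactosylation and chain building around B3galt5, 36 had a probe set and 26 were tested. At 12 h 1 rose and 4 fell, and at 18 h 5 rose and 5 fell. At 6 h 0 were called, with 0 at an unadjusted p under 0.05, and between 18 h and 12 h 0 were called, with 3 at an unadjusted p under 0.05. The list's median difference from sham was -0.02 at 12 h and -0.03 at 18 h, against 0.03 at both times over all tested genes. At 12 h 3 genes of the list were called without sham replicate 3, and 3 without sham replicate 4. With the array sets as a block, 3 were called higher and 5 lower at 12 h.

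Among the galactosyltransferases, C1galt1, which adds the core galactose of O-linked glycans, rose by 1.64 at 12 h (SE 0.26, adjusted p = 0.00125) and by 1.56 at 18 h (adjusted p = 0.00143). It lay at 9.21, 8.78, 8.78 and 9.32 in sham, at 9.33, 9.42, 9.79 and 9.54 at 6 h, at 10.48, 10.17, 10.46 and 11.55 at 12 h and at 10.31, 10.26, 10.84 and 10.93 at 18 h. Its sham and 6 h arrays lay below all 12 h and 18 h arrays, which overlapped. Its other probe sets, 1387446_at and 1391994_at, were 1.89 and 1.71 higher at 12 h and were called as well. B4galt5, which builds the galactose of lactosylceramide, was 1.70 above sham at 12 h without being called (adjusted p = 0.056; 0.0231, a call, with the array sets as a block) and rose by 2.51 at 18 h (SE 0.51, adjusted p = 0.00547). B4galt4, of the same family, fell by 1.74 at 12 h (SE 0.41, adjusted p = 0.0167) and fell by 1.95 at 18 h (adjusted p = 0.00656). Its 12 h call was lost without sham replicate 3 or 4, or 12 h replicate 1 or 2, where the adjusted p reached 0.0614.

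B3galt6, a relative that builds proteoglycan linkers, was at 6.26 in sham and 6.08 at 12 h and was not called (adjusted p = 0.771). B3galt4, a further relative, stayed under the minimum with means of 3.00 in sham and 2.99 at 12 h. B3gnt5, which makes the lacto-series precursor that B3galt enzymes extend, was at 9.98 in sham, 10.81 at 6 h, 9.82 at 12 h and 9.90 at 18 h, and was not called at 12 h (adjusted p = 0.907). The fucosyltransferase genes Fut1 and Fut2, which finish blood group H chains, lay at 2.22 in sham and at 12 and 18 h, and the sialyltransferase St3gal3 between 2.22 and 2.29.

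Enzymes that cap or branch glycans moved in both directions. Fut8, the core fucosyltransferase, lay at 9.81, 10.998, 10.62 and 10.64 in sham, at 9.82, 10.31, 10.52 and 9.98 at 6 h, at 7.83, 7.77, 8.84 and 8.42 at 12 h and at 8.64, 8.30, 8.85 and 7.69 at 18 h. Its 12 h and 18 h arrays were all below its sham and 6 h arrays. It fell by 2.30 at 12 h (SE 0.31, adjusted p = 0.00034) and fell by 2.15 at 18 h (adjusted p = 0.00045). The sialyltransferase St3gal2 fell by 0.80 at 12 h and fell by 0.90 at 18 h (adjusted p = 0.00176 and 0.000572). St6galnac2, another, fell by 1.95 at 12 h and fell by 1.78 at 18 h (adjusted p = 0.0242 and 0.0314). Its 12 h call was lost without sham replicate 2, 3 or 4 or 12 h replicate 1 or 2 (adjusted p up to 0.0774), and its 18 h call without sham replicate 2, 3 or 4 or 18 h replicate 1, 2 or 4 (up to 0.0927). Gcnt2, which branches lactosamine chains, rose by 2.38 at 18 h (SE 0.58, adjusted p = 0.0167), a call lost without 18 h replicate 3 (adjusted p = 0.0578).

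Of 38 listed genes of the urea cycle and of arginine and glutamate metabolism around Nags, 34 had a probe set and 23 were tested. At 12 h 1 rose and 4 fell, and at 18 h 2 rose and 5 fell. At 6 h 0 were called, with 1 at an unadjusted p under 0.05, and between 18 h and 12 h 0 were called, with 1 at an unadjusted p under 0.05. The median difference from sham was -0.16 at 12 h and -0.12 at 18 h, against 0.03 over all tested genes. With the array sets as a block, 2 were called higher and 5 lower at 12 h, the added calls being Asns higher (adjusted p = 0.0188) and Asl lower (adjusted p = 0.0457). The counts rested on single arrays. At 12 h 2 genes were called without sham replicate 3 or 4 or 12 h replicate 1, and 3 without sham replicate 2 or 12 h replicate 2 or 4. At 18 h 2 were called without sham replicate 4 or 18 h replicate 2, 3 without sham replicate 2, and 4 without sham replicate 3 or 18 h replicate 1 or 3.

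Cps1, the enzyme that the Nags product activates, lay at 2.22 in sham and at 12 and 18 h, the lowest value on these arrays. Otc, the next enzyme of the cycle, had means of 2.27 to 2.29, and Arg1, the liver arginase, 2.22 to 2.23. Asl, argininosuccinate lyase, was above the minimum in every group, with means of 7.71 in sham, 7.71 at 6 h, 7.19 at 12 h and 7.13 at 18 h. Ass1, argininosuccinate synthase, was also under the minimum in sham (mean 2.58), at 6 h (2.44) and at 12 h (3.13), but lay at 6.29, 6.70, 6.76 and 3.09 at 18 h. Replicates 1 to 3 at 18 h were thus above all other arrays, and replicate 4 was not. With 3 of 16 arrays at the minimum it was not tested, and a fit with no minimum level gave an 18 h difference from sham of 3.13 (SE 0.70, adjusted p = 0.0305).

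The 4 genes that fell at 12 h (Acy3, Aldh4a1, Arg2 and Acy1) were also called lower at 18 h. Acy3, an aminoacylase that removes acetyl groups from amino acid conjugates, lay at 7.28, 7.50, 7.22 and 7.70 in sham, at 7.02, 6.46, 6.91 and 7.04 at 6 h, at 3.61, 5.28, 3.90 and 3.16 at 12 h and at 3.58, 2.92, 3.58 and 3.24 at 18 h. Its 12 h and 18 h arrays were below all others and, apart from 12 h replicate 2, under the minimum. It fell by 3.43 at 12 h (SE 0.34, adjusted p = 2.68e-05) and fell by 4.10 at 18 h (adjusted p = 5.16e-06). Aldh4a1, which turns a proline product into glutamate in mitochondria, fell by 1.28 at 12 h (SE 0.25, adjusted p = 0.00506) and fell by 1.43 at 18 h (adjusted p = 0.00168). Arg2, the mitochondrial arginase, fell by 1.13 at 12 h (SE 0.32, adjusted p = 0.0447) and fell by 1.28 at 18 h (adjusted p = 0.0206), and its calls were lost without 6 of the 8 arrays at 12 h (sham 1, 3 or 4, 12 h 1, 3 or 4; adjusted p up to 0.12) and without sham replicate 3 or 4 or 18 h replicate 1 or 2 (up to 0.0641). Acy1, the main aminoacylase, fell by 0.94 at 12 h and fell by 0.90 at 18 h (adjusted p = 0.0229 and 0.0235), calls lost without sham replicate 2, 3 or 4 and without replicate 1 or 2 of either time (adjusted p up to 0.0758 and 0.0769).

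Genes of glutamate and glutamine supply showed small differences. Glul, glutamine synthetase, rose by 0.42 at 12 h (SE 0.12, adjusted p = 0.0497) and was 0.31 above sham at 18 h (adjusted p = 0.134). Its call was lost without sham replicate 2, 3 or 4 or 12 h replicate 1, 2 or 4 (adjusted p up to 0.147). Got2, the closest match to Nags, was 0.38 above sham at 12 h and was not called (adjusted p = 0.0712). Its arrays lay at 12.48, 12.02, 12.25 and 12.13 in sham and at 12.71, 12.63, 12.38 and 12.66 at 12 h, and these overlapped. Glud1, glutamate dehydrogenase, was 0.31 above sham (adjusted p = 0.501), Slc25a15, the mitochondrial ornithine carrier, 0.26 above (adjusted p = 0.504) and Odc1, ornithine decarboxylase, 0.21 above (adjusted p = 0.737), with no call. At 18 h Asns, asparagine synthetase, rose by 1.23 (SE 0.34, adjusted p = 0.0347), Aldh18a1, an enzyme of proline synthesis, rose by 0.63 (adjusted p = 0.034) and Asl fell by 0.58 (adjusted p = 0.032). These 3 calls were lost in 5 or 6 of the 8 fits that leave out 1 array. They were lost for Asns without sham 1, 2 or 4 or 18 h 1, 2 or 3 (adjusted p up to 0.106), for Aldh18a1 without any sham array or 18 h 2 or 3 (up to 0.102) and for Asl without sham 2 or 4 or 18 h 2, 3 or 4 (up to 0.103). The other tested probe set of Asl, 1367754_s_at, differed from sham by -0.56 at 18 h and was not called (adjusted p = 0.105).

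Of 36 listed Ras-like GTPase genes around Rasl10a, 29 had a probe set and 18 were tested. At 6 h 1 rose, at 12 h 3 rose and at 18 h 2 rose, and 0 were called lower, with 3, 9 and 5 at an unadjusted p under 0.05 in either direction. With the array sets as a block, 4 were called higher and 1, Rap1b, lower at 12 h (adjusted p = 0.0239), and 2 higher and 1 lower at 18 h. Between 18 h and 12 h 0 were called, with 1 at an unadjusted p under 0.05. The median difference from sham was 0.06 at 12 h and 0.12 at 18 h, against 0.03 over all tested genes. At 12 h 5 were called without sham replicate 1.

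Rasl11b, the relative with the largest difference at 12 h, lay at 6.63, 4.17, 6.33 and 5.36 in sham, at 6.06, 5.24, 5.23 and 6.88 at 6 h, at 9.21, 8.82, 7.12 and 7.69 at 12 h and at 6.79, 7.47, 7.07 and 7.92 at 18 h. As with the 3 genes, its 12 h mean was the highest and its 12 h and 18 h arrays overlapped. It rose by 2.59 at 12 h (SE 0.57, adjusted p = 0.0119), was 1.69 above sham at 18 h (adjusted p = 0.0776), and was 0.90 lower at 18 h than at 12 h (adjusted p = 0.844). Rasd1, a GTPase induced by glucocorticoids in other tissues, lay at 10.62, 9.48, 10.37 and 10.35 in sham, at 11.35, 11.16, 11.47 and 11.51 at 6 h, at 11.71, 11.61, 11.68 and 11.84 at 12 h and at 10.996, 11.35, 11.06 and 11.50 at 18 h. All ligated arrays were above all sham arrays. It rose by 1.17 at 6 h (SE 0.20, adjusted p = 0.0244), by 1.51 at 12 h (adjusted p = 0.000301) and by 1.02 at 18 h (adjusted p = 0.00412). The 6 h call was lost, and the count for the list with it, without sham replicate 3 or 4 or any 6 h array (adjusted p up to 0.0939).

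Nras rose by 0.40 at 12 h (SE 0.10, adjusted p = 0.022) and by 0.50 at 18 h (adjusted p = 0.00433), and its 12 h call was lost without sham replicate 3 or 4 or 12 h replicate 1 or 3 (adjusted p up to 0.0676). Its other tested probe set, 1387678_at, was 0.33 above sham at 12 h and 0.47 at 18 h and was not called (adjusted p = 0.244 and 0.0618). Rerg, an estrogen-regulated relative, was 0.85 below sham at 12 h and was not called (adjusted p = 0.0644; 0.0502 with the array sets as a block), nor was Rasl12 (-0.22, adjusted p = 0.624). Rasl10b, the gene nearest to Rasl10a in name, stayed under the minimum with means of 2.33 in sham and 2.43 at 12 h, as did Rrad (2.22 in both) and Gem (2.23 in both).

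**Figure D3:**
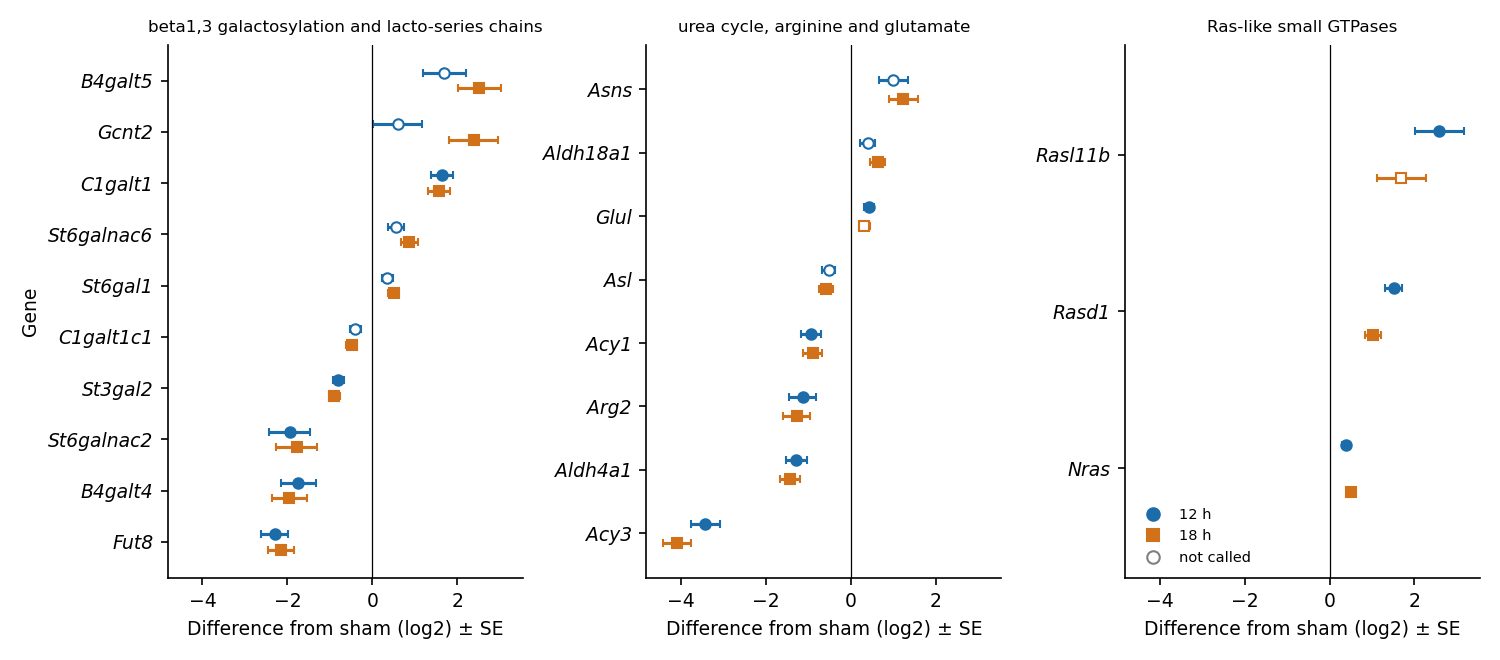
Difference from sham (log2, x axis, bars give the SE) at 12 h (circles) and 18 h (squares) for the genes of the 3 lists (panels) that were called at either time, with open symbols where a difference was not called. Galactosylation genes lie on both sides of 0 (Fut8 at -2.30 and C1galt1 at 1.64 at 12 h), the genes around Nags fall furthest at Acy3, and the called Ras-like genes lie above 0.

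The genes beside the 3 on their chromosomes were read as well, taking the 3 nearest with a probe set on each side. Of these 18 neighbours 13 were tested, and 2 were called at 12 h and 2 at 18 h. At 6 h and between 18 h and 12 h 0 were called (0 of 13 at an unadjusted p under 0.05 in both). Among all tested genes 4.39% were called higher and 4.36% lower at 12 h, and 5.99% and 5.12% at 18 h. Whether 2 of 13 exceeds these shares was not tested. Gas2l1, a linker of actin and microtubules, overlaps Rasl10a (chr14:84169398-84175514). It lay at 8.09, 7.46, 7.51 and 7.44 in sham, at 8.35, 8.02, 7.41 and 7.86 at 6 h, at 9.28, 9.36, 8.72 and 8.53 at 12 h and at 9.06, 9.001, 8.49 and 8.54 at 18 h. All of its 12 h and 18 h arrays were above its sham and 6 h arrays, as for Rasl10a.

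Gas2l1 rose by 1.34 at 12 h (SE 0.24, adjusted p = 0.00291) and by 1.15 at 18 h (adjusted p = 0.00655), and a second probe set, 1393819_x_at, whose suffix marks probes that can bind other transcripts, rose by 0.76 and 1.16 (adjusted p = 0.034 and 0.00197). Where the probes of either gene lie in the overlap was not analysed here, so shared signal between them was not tested. The next genes, Ewsr1 8894 bases beyond and Ap1b1 24306 bases before, differed from sham at 12 h by -0.04 and 0.14 and were not called (adjusted p = 0.887 and 0.58).

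Igsf5, an immunoglobulin superfamily gene of cell junctions 55592 bases beyond B3galt5, went the other way. It lay at 10.26, 10.19, 10.49 and 10.31 in sham, at 10.12, 10.28, 10.53 and 10.24 at 6 h, at 9.56, 9.72, 9.95 and 9.82 at 12 h and at 9.36, 9.35, 9.77 and 9.56 at 18 h. It fell by 0.55 at 12 h (SE 0.13, adjusted p = 0.0147) and fell by 0.80 at 18 h (adjusted p = 0.000849). The 12 h call was lost without sham replicate 3 or 12 h replicate 1 (adjusted p up to 0.0528). Sh3bgr, on the other side of B3galt5, was 0.41 above sham at 12 h and was not called (adjusted p = 0.607). Beside Nags, Tmem101, 2650 bases beyond, stayed under the minimum with means from 3.69 to 3.73, and Lsm12 was 0.21 above sham at 12 h and was not called (adjusted p = 0.557).

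**Figure D4:**
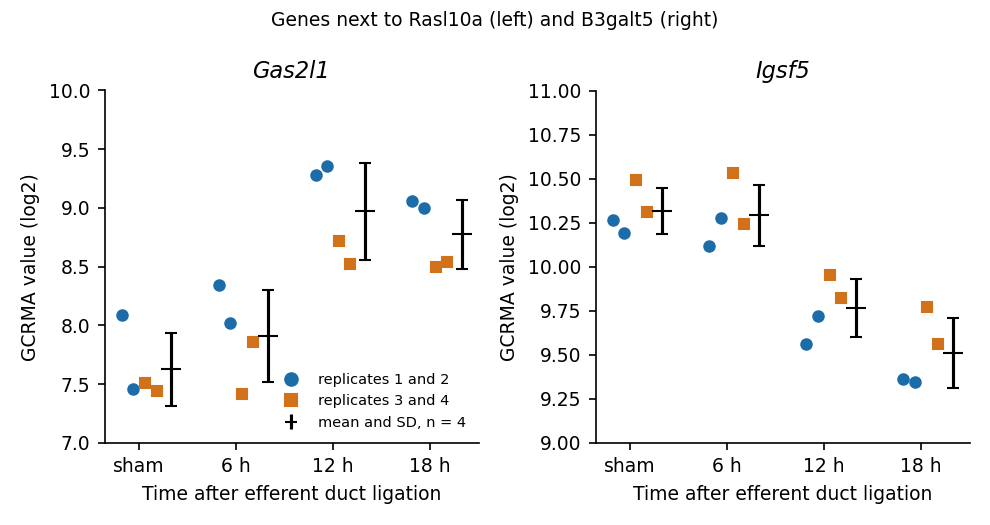
GCRMA level (log2, y axis) of Gas2l1, which overlaps Rasl10a, and Igsf5, the next gene beyond B3galt5, on each array by group (x axis), with the mean and SD (n = 4). Gas2l1 arrays at 12 h (8.53 to 9.36) lie above all sham arrays, and Igsf5 arrays at 12 h (9.56 to 9.95) lie below them.

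The cell types in the tissue were read from marker lists. All 13 epithelial markers with a probe set were above the minimum, and their summed level (log2 of the sum) was 14.78 to 14.84 in sham and 14.81 to 14.995 at 12 h, with 2 called higher at 12 h and 2 at 18 h. Of 11 tested macrophage markers 1 was higher at 12 h and 2 at 18 h, with summed levels of 10.9 to 11.6 in sham and 10.1 to 12.5 at 12 h and with Cd163, Adgre1 and Itgam under the minimum. Sperm markers fell, 3 of 4 tested at both 12 and 18 h, from summed levels of 8.79 to 11.31 in sham to 7.38 to 7.93 at 12 h, with Prm2, Tnp1, Tnp2, Akap4 and Ldhc under the minimum. At 12 h 0 of 12 tested fibroblast, 8 smooth muscle, 4 endothelial, 3 lymphocyte, 2 fat and 1 neutrophil markers were called by limma. Of these, 0 were at an unadjusted p under 0.05. In lists this small, 0 calls do not show that a cell type was unchanged. The median fibroblast marker was 0.45 above sham at 12 h, with 9 of 12 higher, against 0.03 over all tested genes. At 18 h 1 of the 4 endothelial markers was called higher, with summed levels of 8.80 to 9.33 in sham and 9.34 to 9.97 at 18 h and with Pecam1, Tek, Tie1, Flt1 and Vwf under the minimum, and 0 of the others were called, with 1 fibroblast marker at an unadjusted p under 0.05. With the replicate number as a term, 2 fibroblast markers were called at 12 h and 2 at 18 h. So were 2 endothelial markers at 18 h. Among all tested genes 4.39% were called higher and 4.36% lower at 12 h, and 5.99% and 5.12% at 18 h. The part of the marker shifts in the levels of B3galt5, Nags and Rasl10a was not tested.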

How the data were processed

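RNA from 16 initial segments was hybridised to Affymetrix rat arrays. The deposited value table holds log2 values, made by the authors with GCRMA per the submitters' processing notes, its version not given in the sources used here. GCRMA corrects background by probe sequence and quantile-normalizes, so levels near the floor are compressed and can be equal between arrays. This did not hold for every gene, since Nags ranged from 2.22 to 4.61 in sham. Scanner files were not analysed here. Of 31099 probe sets, 57 controls were left out, and the platform annotation of 2016 gave 20826 of the rest 1 symbol, 436 several and 9780 none, of which 20758 were found by Entrez ID in GRCr8. Promoter windows (RefSeq, GRCr8) matched 3 of 3 genes. A probe set was tested at 5 or more on at least 4 arrays (13410), and a gene was its probe set with the highest mean.

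Groups came from the sample titles. In R 4.3.3, limma 3.58.1 (lmFit and eBayes, 1 fit over the 4 groups) gave differences and standard errors, with Benjamini-Hochberg adjustment over all tested probe sets and a threshold of 0.05. The fit was tested on simulated data. The median of tested probe sets was 7.51 to 7.62 per array, array correlations were 0.882 to 0.986, and 0 pairs were identical.

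The 3 genes and the lists were chosen with earlier results of these data known. Named genes were the 3 genes, up to 4 called genes per list and comparison with the largest differences, close relatives in role, the 5 nearest in correlation to each, the 8 largest strict 12 h peaks and the chromosomal neighbours. Alternatives were another prior, 2 other minimum levels, 2 normalizations, fits of 2 groups, blocks by replicate number or array set, each set alone, averaged probe sets, stricter thresholds, arrayWeights (statmod 1.5.0) and each array left out.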

Additional observations from a re-analysis of the deposited data

Results flagged for a closer look

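Single arrays stood apart from the other 3 of their group, by a gap that is large against the group's range, in 3 of the 12 groups of values; chance gives about 1 in 20. For Nags at 12 h, replicate 3 lay at 5.18 and the others at 7.31 to 7.47. In sham, replicate 4 lay at 2.63 for B3galt5, against 2.71 on the others, and at 3.96 for Rasl10a, against 4.03. Both sham values are under the minimum level and differ from the others by less than 0.1 on the log2 scale.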

How the results depend on the processing

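The 18 differences between group means of the 3 genes were recomputed 288 times and kept within 1 SD in 274, with 14 exceptions, all in fits of replicates 1 and 2 or 3 and 4 alone. In replicates 1 and 2 the 6 h minus sham difference was 0.32 for B3galt5 and 0.023 for Rasl10a (1.10 and 0.80 in replicates 3 and 4), 18 h minus sham was 2.30 for Nags and 1.79 for Rasl10a (4.54 and 2.51), 18 h minus 12 h was -1.70 for Nags (0.78), and 12 h minus 6 h was 4.20 for B3galt5 and 4.82 for Nags (2.61 and 2.58). Called named genes reversed in 0 of the alternatives. Calls of C1galt1, Fut8, Acy3 and Gas2l1 at 12 and 18 h held in every alternative run.

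Counts of called probe sets were 38 at 6 h, 1054 at 12 h and 1362 at 18 h against sham, 0 for 18 h against 12 h, 574 for 12 h against 6 h and 1057 for 18 h against 6 h. In that order, where they moved by over 1.5 times, they were 7, 653, 277 (12 h against 6 h) and 642 with no minimum level; 15, 477, 827 and 323 (12 h against 6 h) with only the 2 groups compared; 1735, 2179, 2, 1215 and 2030 from 12 h on with the array sets as a block; 4, 617, 828, 110 and 621 (18 h against 6 h) in replicates 1 and 2 alone; 3, 572, 1, 115 and 460 in replicates 3 and 4 alone, apart from 18 h against sham; 6, 440, 638, 162 and 439 at an adjusted p under 0.01; 25, 481, 602, 260 and 446 at a fold change of at least 2; and 104, 2426, 2111, 56 and 1471 (12 h against 6 h) with arrayWeights.

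With the replicate block, the replicate number as a term, 1709 probe sets were called at 12 h and 2165 at 18 h against sham, 2 for 18 h against 12 h, 1166 for 12 h against 6 h and 1927 for 18 h against 6 h, and 7 Ras-like genes were called at 12 h (5 higher, 2 lower) and 4 at 18 h (2 higher, 2 lower). Among them Rerg was called lower at both times (adjusted p = 0.0379 and 0.0492). The galactosylation gene B4galt5 was called at 12 h (adjusted p = 0.034). Same-numbered arrays correlated at 0.00651 to 0.556 after removing group means, and 10 of 16 arrays correlated best with their own number, so the numbers were not taken to pair the arrays.

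List counts moved as follows. Galactosylation genes called at 12 h (5) were 3 with no minimum level, with 2 groups, in replicates 1 and 2 or at 0.01, 8 with the set block and 10 with arrayWeights; at 18 h (10) they were 6 with no minimum level, at 0.01 or at 2-fold; for 18 h against 12 h there was 1 in replicates 1 and 2. Genes around Nags at 12 h (5) were 2 with no minimum level, 1 with 2 groups, 3 in either set or at 2-fold, 2 at 0.01 and 11 with arrayWeights; at 18 h (7) they were 3 with no minimum level, 4 with 2 groups, in replicates 3 and 4 or at 2-fold, and 2 at 0.01. Ras-like genes at 6 h (1) were 0 with no minimum level, with 2 groups, in either set or at 0.01; at 12 h (3) they were 1 with 2 groups or at 0.01, 0 in replicates 1 and 2, 5 with the set block and 7 with arrayWeights; at 18 h (2) they were 1 with 2 groups, in replicates 3 and 4 or at 2-fold, 0 in replicates 1 and 2 and 4 with arrayWeights. Why these counts moved was not tested.

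Leaving out 1 array gave 7 to 48 probe sets at 6 h, 626 to 1079 at 12 h, 879 to 1371 at 18 h, 0 to 53 for 18 h against 12 h, 245 to 608 for 12 h against 6 h, 661 to 1159 for 18 h against 6 h, and 19 to 73 with every 12 h array highest. It gave 3 to 6 galactosylation genes at 12 h, 2 to 6 at 12 h and 2 to 7 at 18 h around Nags, and 0 to 1 at 6 h, 2 to 5 at 12 h and 2 to 3 at 18 h among Ras-like genes. Values of all 3 genes in sham, and all but 1 of their values at 6 h, are under the minimum level and in the background range. This limits what a difference between sham and 6 h can show.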
